A study of Mus musculus with 4 samples.

Results

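In Srf KO neutrophils the histone genes called lower than in WT cells were mostly H2B genes of the Hist1 cluster. Of 48 tested Hist genes 18 were called lower, 14 of them H2B genes, against 17.8% of all tested genes. Without the H2B genes, 4 of 32 were called lower, a smaller share than over all tested genes. Of 9 tested variant genes 3 were called higher, against 17.7% of all tested genes. These were H2afx, H2afz and H2afv, all of the H2A family, and the call of H2afv did not hold under some other settings. Members were the rows of the authors' deposited gene table whose symbol begins with Hist1, Hist2, Hist3, Hist4, H2af, H3f3 or H1f, which gave 81 of 23284 genes. Classes were set by symbol alone. Of the 81 rows, 67 are Hist genes, taken as replication-dependent, and 14 are variant genes. The 67 include testis genes such as Hist1h2ba. The authors' test gave a result (status OK) for 57 members, 48 Hist and 9 variant. The other 24 were not tested, 21 with the status NOTEST and 3 with LOWDATA, and each of the 3 LOWDATA genes (Hist1h2ap, Hist1h4n and Hist2h2aa2) is also named in a joint row that was tested.

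RNA had been sequenced from mouse bone marrow neutrophils of 2 genotypes, Srf KO and WT, with 2 samples of each and 4 in all. Srf encodes serum response factor, a DNA-binding factor that recognises the CArG box, and the study asked about neutrophil migration. Sorting had kept mature cells high in Gr1, in the 7/4 antigen and in side scatter. The sources used here do not give the Cre driver, the alleles, the strain, the age or any treatment of the mice, and the labels do not say that samples came from separate animals.

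The authors' deposited table holds 1 pooled FPKM value per genotype (fragments mapped, scaled for transcript length and library size), so values of single samples, read depth and the spread between replicates are unknown, and precision can be read only from the authors' test. Log2 folds are given as Srf KO over WT, with ± marking a standard error worked out as the fold divided by its test statistic. A gene is called when the authors' adjusted p (q-value) is at most 0.05. In the authors' deposited table Srf stood at 0.439 FPKM in Srf KO and 13.7 FPKM in WT, with a log2 fold of -4.97 ± 0.27. Among all 12634 genes tested, 35.5% were called, 17.7% higher and 17.8% lower in Srf KO, and the median log2 fold was 0.08. As a check of the sorting label, the neutrophil genes S100a8, S100a9, Ngp and Ltf are listed at 0 FPKM in both genotypes with the status HIDATA, which marks too many reads to process, so they do not show absence. Neutrophil markers summed to 29990 FPKM in Srf KO and 57674 FPKM in WT, and of 6 tested 4 were called lower and 0 higher. The WT sum includes 16292 FPKM of Camp, which has the status HIDATA and is listed at 0 in Srf KO.

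Histones are the proteins around which DNA is wound, with the core histones H2A, H2B, H3 and H4 forming the nucleosome and the linker histone H1 binding outside it. Replication-dependent histone genes lie in clusters, have mostly no introns and are switched on in S phase. Their mRNAs end in a conserved stem-loop bound by the stem-loop binding protein, in place of a poly(A) tail. Replacement variants such as those encoded by H2afz, H2afx and H3f3a are made outside S phase too, mostly from genes with introns and polyadenylated mRNAs. Some Hist genes, Hist1h1c and Hist1h2bc among them, are also known to make polyadenylated transcripts in cells that have left the cell cycle. Neutrophils leave the cell cycle as they mature in the marrow. The kit named in the labels, TruSeq RNA v2, selects poly(A) RNA in its standard form, so that stem-loop mRNAs without a tail are captured poorly, and it does not mark the strand.

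The stem-loops of 7 members are shown because they set the classes apart and because their presence bears on what a poly(A) library can capture. The element was searched by the consensus of the histone stem-loop, read as GG, any 2 bases, CTTTT, any 1 base, AG, any 2 bases and CC, downstream of the coding sequence on the sense strand only, and it stands in capitals between 5 flanking bases on each side. Sequences are from GENCODE M21 transcripts on GRCm38 (mm10).
Hist1h2bf (chr13:23573760-23573785, minus strand): ccaaaGGCTCTTTTCAGAGCCaccta
Hist1h2bk (chr13:22036295-22036320, plus strand): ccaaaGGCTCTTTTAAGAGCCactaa
Hist1h1c (chr13:23739507-23739532, plus strand): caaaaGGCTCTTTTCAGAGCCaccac
Hist2h2aa1 (chr3:96246027-96246052, plus strand): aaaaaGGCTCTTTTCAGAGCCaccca
Hist2h2ac (chr3:96220413-96220438, minus strand): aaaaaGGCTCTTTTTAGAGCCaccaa
Hist1h4i (chr13:22040961-22040986, minus strand): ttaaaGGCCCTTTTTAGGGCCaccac
H2afx (chr9:44335235-44335260, plus strand): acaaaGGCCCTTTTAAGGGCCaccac

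The element was found in 44 of 66 Hist genes with a coding transcript and in 1 of 13 variant genes, H2afx. A search of whole coding transcripts, not only downstream of the coding sequence, gave the same counts for members. By that search 72 (0.329%) of all 21877 genes with a coding transcript, members included, held it. In 14 of the Hist genes an annotated transcript has no base after the coding sequence, so a missing match in that transcript says nothing of the gene. Of these, Hist1h2br also has a transcript with 823 bases after the coding sequence and no match. The commonest form, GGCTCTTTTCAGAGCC, was shared by 26 Hist genes of the H1, H2A, H2B and H3 families, and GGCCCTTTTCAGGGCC by 7 genes, all of them H4. In 22 Hist genes the annotated transcript runs more than 100 bases past the loop. The transcript of Hist1h1c goes on for 840 bases and that of H2afx for 822 bases, against 29 bases for Hist1h2bf and 30 bases for Hist1h2bk.

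Across the Hist genes the calls in Srf KO were all in 1 direction and were mostly of H2B genes. Of 48 tested Hist genes, 18 (37.5%) were called lower and 0 higher, against 17.8% lower and 17.7% higher over all tested genes. Of their 48 folds 43 were below 0, with a median log2 fold of -1.23 against 0.08 over all tested genes. At an unadjusted p of at most 0.05 the authors' test gave 22 lower and 0 higher. Without the H2B genes, 4 of 32 tested Hist genes were called lower, a smaller share than the 17.8% of all tested genes, with a median log2 fold of -0.71. Members share loci and sequence and are not replicates, so these counts describe the class and no test was made of it. Of the 18 called genes, 17 were at least 2-fold lower, whereas 6.45% of all tested genes were called and at least 2-fold lower. The Hist genes together summed to 105 FPKM in Srf KO and 227 FPKM in WT. In Srf KO they made up 4.15% of the FPKM of all members, against 10.5% in WT.

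Calls were mostly of genes with a higher mean level over both genotypes. With genes split by the mean FPKM of both genotypes, 17 of the 23 Hist genes at 1 FPKM or more were called lower, against 21.0% of all tested genes at that level. Of the 25 tested Hist rows under 1 FPKM, 1 was called lower, against 4.23% of all tested genes at that level. It was the row of Hist1h4m and Hist1h4n. The mean includes WT, so a gene that is lower in Srf KO can reach 1 FPKM through WT alone. Hist1h1e, for example, was at 0.497 FPKM in Srf KO and 2.10 FPKM in WT. The split is thus not independent of the fold, and these counts are descriptions. Whether calls depend on level was not tested. The median implied standard error was 0.49 for the called Hist genes and 1.13 for the 30 uncalled ones, 25 of which had folds below 0.

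**Figure D1:**
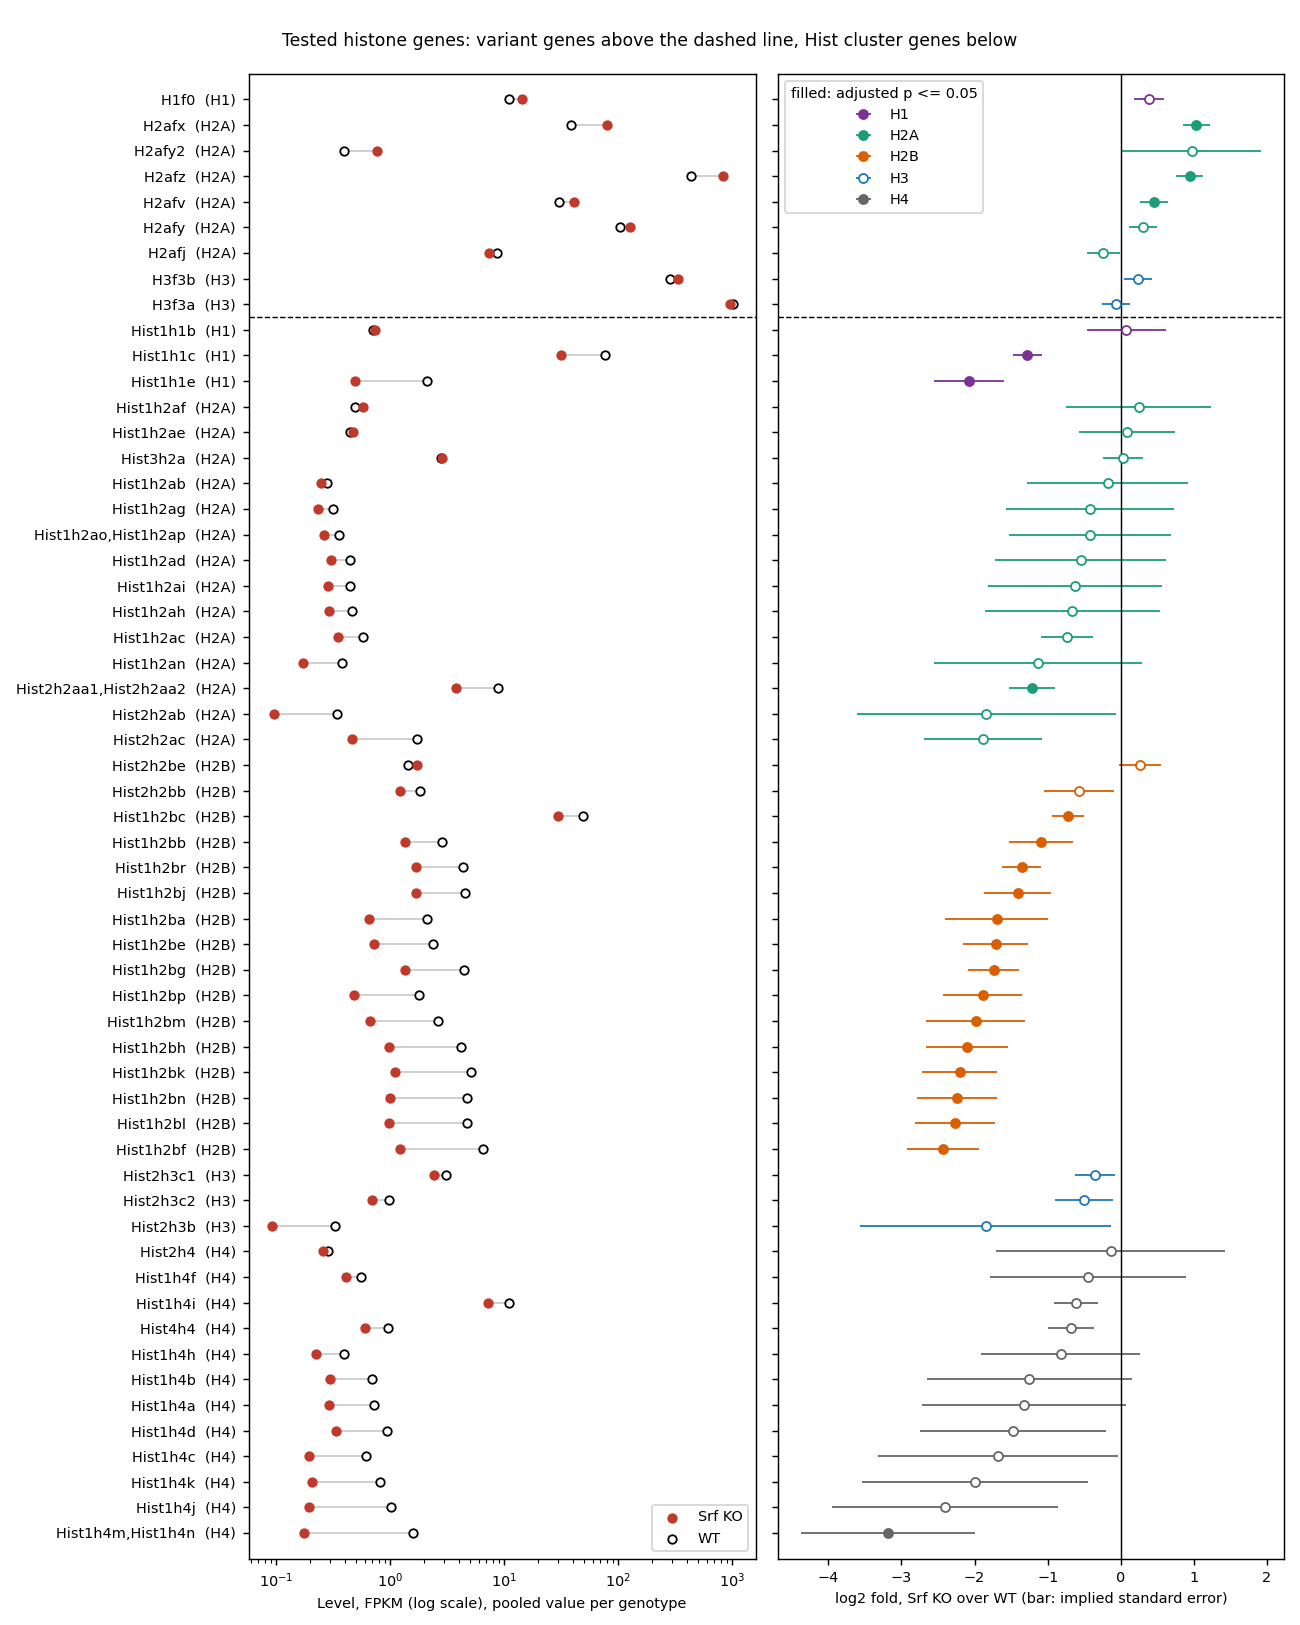
Level (left, FPKM on a log axis, 1 pooled value per genotype, Srf KO filled red and WT open) and log2 fold of Srf KO over WT with the implied standard error as a bar (right) for the 57 tested members, with variant genes above the dashed line and Hist genes below it. Filled points on the right have an adjusted p of at most 0.05, 3 to the right of 0 among the variant genes and 18 to the left of 0 among the Hist genes, of which 14 are H2B genes.

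H2B genes carried most of the calls. Of 16 tested Hist H2B genes 14 were called lower and 0 higher, with a median log2 fold of -1.73. All 14 tested H2B genes of the Hist1 cluster on chromosome 13 were called lower, and the 2 of the Hist2 cluster on chromosome 3 were not called. H2B genes summed to 47.1 FPKM in Srf KO and 104 FPKM in WT.

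The most abundant H2B gene was Hist1h2bc, one of those known to make polyadenylated mRNA, at chr13:23684199-23692480. It stood at 29.9 FPKM in Srf KO and 49.3 FPKM in WT in the authors' deposited table, with a log2 fold of -0.72 ± 0.21 and an adjusted p of 0.00398. That was the smallest fall among the called H2B genes. The other 13 called H2B genes, all in the Hist1 cluster, summed to 13.9 FPKM in Srf KO and 50.7 FPKM in WT.

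Hist1h2bf, a single-exon core histone gene at chr13:23573810-23574190, had the largest fall among them. In the authors' deposited table it stood at 1.22 FPKM in Srf KO and 6.58 FPKM in WT (-2.43 ± 0.49, adjusted p = 1.24e-05). Hist1h2bl stood at 0.987 FPKM in Srf KO and 4.75 FPKM in WT by the authors' deposited table (-2.27 ± 0.55). Hist1h2bn stood at 1.01 FPKM in Srf KO and 4.77 FPKM in WT by the authors' deposited table (-2.24 ± 0.54). All 3 encode core H2B proteins, and their standard errors overlap. The authors' deposited table gave 1.12 FPKM in Srf KO and 5.16 FPKM in WT for Hist1h2bk (-2.21 ± 0.52, adjusted p = 0.000187). For Hist1h2bh the authors' deposited table gave 0.978 FPKM in Srf KO and 4.21 FPKM in WT (-2.11 ± 0.56). These 5 genes had the lowest folds of the H2B genes, with standard errors that overlap one another.

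Other called H2B genes had smaller folds. Hist1h2bm stood at 0.675 FPKM in Srf KO and 2.66 FPKM in WT in the authors' deposited table (-1.98 ± 0.68). Hist1h2bp stood at 0.486 FPKM in Srf KO and 1.8 FPKM in WT in the authors' deposited table (-1.89 ± 0.54). Hist1h2bg stood at 1.35 FPKM in Srf KO and 4.50 FPKM in WT by the authors' deposited table (-1.74 ± 0.35). Each of the 3 had a Srf KO level of at most 1.35 FPKM. In the authors' deposited table Hist1h2bj was at 1.70 FPKM in Srf KO and 4.51 FPKM in WT (-1.41 ± 0.45). Hist1h2br, whose values the other tables repeat at another locus, was at 1.70 FPKM in Srf KO and 4.36 FPKM in WT in the authors' deposited table (-1.36 ± 0.27). Hist1h2be was at 0.723 FPKM in Srf KO and 2.37 FPKM in WT by the authors' deposited table (-1.71 ± 0.44), at a locus that the table shares with the H1 gene Hist1h1e. Like Hist1h2bc, Hist1h2be was taken here as a gene known to make polyadenylated mRNA.

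The calls nearest the threshold among H2B genes were Hist1h2bb and Hist1h2ba. Hist1h2bb was at 1.35 FPKM in Srf KO and 2.89 FPKM in WT in the authors' deposited table (-1.10 ± 0.44, adjusted p = 0.0366). Hist1h2ba, the testis H2B gene, was at 0.652 FPKM in Srf KO and 2.12 FPKM in WT in the authors' deposited table (-1.70 ± 0.70, adjusted p = 0.0448). With a threshold of 0.01 neither was called, and nor was Hist1h2bm.

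Both uncalled H2B genes lie in the Hist2 cluster. Hist2h2be, which is also known to make polyadenylated mRNA, stood at 1.73 FPKM in Srf KO and 1.44 FPKM in WT in the authors' deposited table, a log2 fold of 0.26 ± 0.29 with a 95% interval of -0.30 to 0.82. Hist2h2bb stood at 1.23 FPKM in Srf KO and 1.83 FPKM in WT in the authors' deposited table, a log2 fold of -0.57 ± 0.48 with a 95% interval of -1.51 to 0.36. The interval of Hist2h2bb overlaps those of called genes, and the difference between the clusters was not tested. Of 9 tested genes in the Hist2 cluster 1 was called lower, and in the Hist1 cluster 17 of 37 were, against 17.8% of all tested genes. Of the 17 called in the Hist1 cluster, 14 were H2B genes.

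H2B genes are near copies of one another, and reads may have been shared among them. Over 14 H2B genes with coding sequences of equal length, 91 pairs were 82.9% to 99.0% identical, with a median of 94.8%. The longest identical run that an H2B gene shared with any other had a median of 200 bases, so a read can lie wholly within a shared stretch. The sources used here do not say how such reads were split, so the values of single H2B genes are uncertain. The longest shared run was 44 bases for Hist2h2bb and 47 bases for Hist2h2be, the uncalled genes of the Hist2 cluster. For the Hist1 genes compared it ran from 127 bases (Hist1h2bm) to 305 bases (Hist1h2bc and Hist1h2bg). Whether read sharing bears on the difference between the clusters was not tested. The authors' gene models also differ, since 8 of the 16 tested H2B genes have a model no longer than the coding sequence.

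Most Hist H2A genes were at low levels with large standard errors. They too are near copies, so the values of single H2A genes are also uncertain. Over 15 H2A genes with coding sequences of equal length the median identity was 96.4%. The longest identical run shared with any other had a median of 320 bases. Of 14 tested Hist H2A genes 1 was called lower and 0 higher (3 lower and 0 higher at an unadjusted p of at most 0.05), with a median log2 fold of -0.59 and a median standard error of 1.11. The called row named both Hist2h2aa1 and Hist2h2aa2, whose coding sequences are identical, at chr3:96245538-96246115 in the table. It stood at 3.83 FPKM in Srf KO and 8.89 FPKM in WT in the authors' deposited table (-1.21 ± 0.31, adjusted p = 0.000726). Hist2h2ac, also an H2A gene of the Hist2 cluster, lay just outside the threshold at 0.466 FPKM in Srf KO and 1.72 FPKM in WT in the authors' deposited table (-1.89 ± 0.80, adjusted p = 0.0519). It was called after centring on the median of all genes and after adjustment for transcript length.

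Hist3h2a, an H2A gene outside the large clusters that is also known to make polyadenylated mRNA, was at 2.86 FPKM in Srf KO and 2.80 FPKM in WT in the authors' deposited table. Its log2 fold there, in the authors' deposited table, was 0.03 ± 0.27, with a 95% interval of -0.50 to 0.56. Hist1h2ac was at 0.350 FPKM in Srf KO and 0.583 FPKM in WT in the authors' deposited table (-0.74 ± 0.35, adjusted p = 0.0853). The tested H2A genes of the Hist1 cluster, 10 in all, were at 0.173 to 0.581 FPKM in Srf KO and 0.280 to 0.583 FPKM in WT, with folds of -1.13 to 0.24, and none was called by the authors' test, while 1 of them, Hist1h2ac, had an unadjusted p under 0.05.

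**Figure D2:**
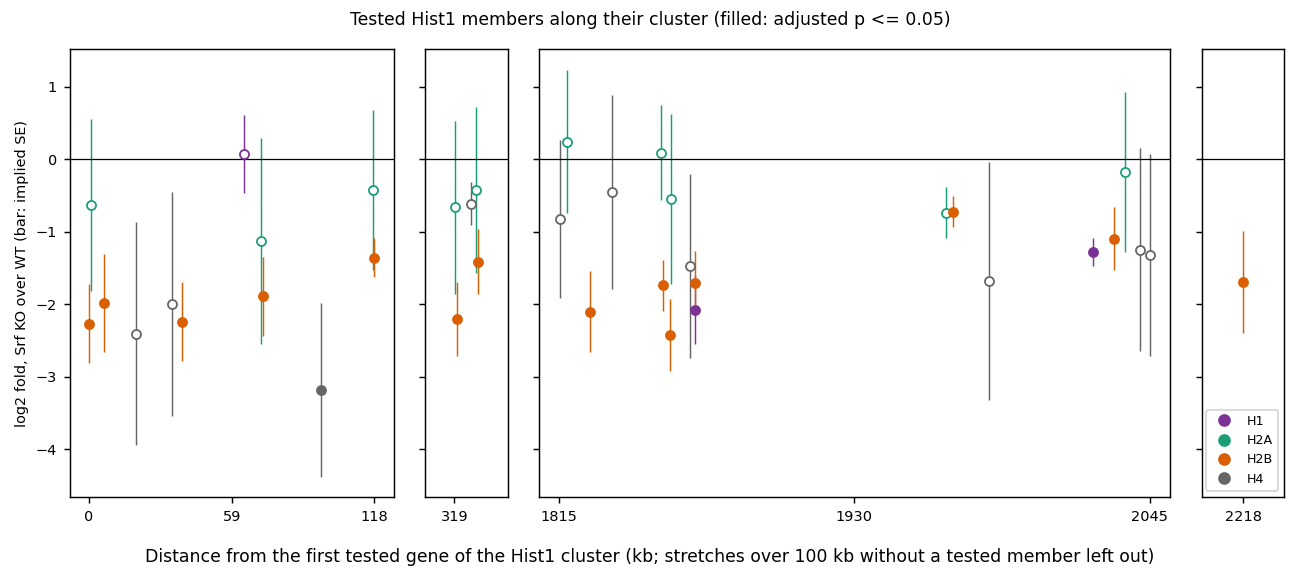
Log2 fold of Srf KO over WT (bar, implied standard error) for the 37 tested Hist1 genes by distance in kb from the first of them, with stretches of over 100 kb that hold no tested gene left out. All 14 H2B genes (orange) are filled, meaning an adjusted p of at most 0.05, and lie below 0 along the whole cluster, whereas the 10 H2A genes (green) are open with longer bars.

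H2A and H2B genes often stand as close neighbours. Of the tested members, 10 pairs of an H2B and an H2A gene lay within 1000 bases of each other, with gaps of 167 to 812 bases, and Hist2h2be was in 2 of them. The H2B gene was called lower in 8 pairs and the H2A gene in 0 by the authors' test (2 at an unadjusted p of at most 0.05), and the H2B fold lay below the H2A fold in 7. The median log2 fold was -1.58 for the H2B partners and -0.65 for the H2A partners. Their levels differed as well. The H2B gene had the higher FPKM in 10 pairs in Srf KO and in 9 pairs in WT, and the median standard error was 0.40 for H2B and 1.16 for H2A. For Hist1h2bg and Hist1h2ae, which lie 179 bases apart, the folds were -1.74 ± 0.35 and 0.09 ± 0.66 in the authors' deposited table. For Hist1h2bc and Hist1h2ac, which lie 239 bases apart, they were -0.72 ± 0.21 and -0.74 ± 0.35 in the authors' deposited table. Whether the partners of a pair differ in fold was not tested, and nor was the effect of reads shared with other copies on these levels.

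**Figure D3:**
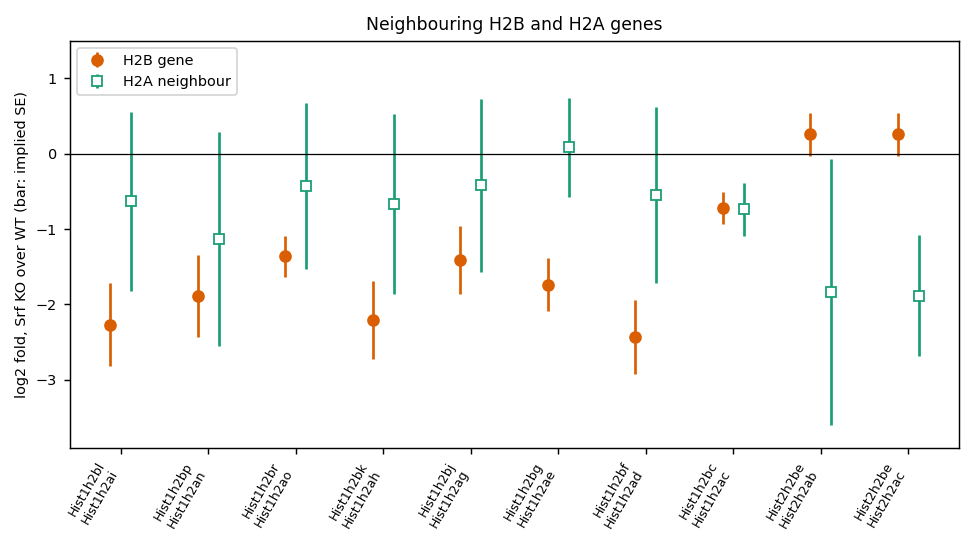
Log2 fold of Srf KO over WT for the H2B gene (orange circles) and its H2A neighbour (green open squares) in the 10 pairs within 1000 bases, with implied standard errors as bars. In 8 pairs the H2B gene was called lower, and the H2A bars, with a median standard error of 1.16, span 0 in 7 pairs.

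Among linker histone genes, Hist1h1c dominated. Hist1h1c, at chr13:23738807-23740367, stood at 31.6 FPKM in Srf KO and 76.6 FPKM in WT in the authors' deposited table (-1.28 ± 0.19, adjusted p = 1.87e-09). This was the most abundant Hist gene in both genotypes and the Hist call with the smallest adjusted p. Hist1h1c and Hist1h2bc together made 58.5% of the Hist sum in Srf KO and 55.5% in WT. Hist1h1e was at 0.497 FPKM in Srf KO and 2.10 FPKM in WT in the authors' deposited table (-2.08 ± 0.48, adjusted p = 0.00014). Hist1h1b, the other tested linker gene of the cluster, was at 0.742 FPKM in Srf KO and 0.705 FPKM in WT in the authors' deposited table (0.07 ± 0.54). H1f0, the linker variant gene that is typical of differentiated cells, was at 14.5 FPKM in Srf KO and 11.1 FPKM in WT in the authors' deposited table, with a log2 fold of 0.39 ± 0.21 that was not called (adjusted p = 0.133). The FPKM ratio of H1f0 to Hist1h1c was 0.460 in Srf KO and 0.145 in WT.

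H4 and H3 genes of the clusters were mostly at low levels and uncalled. Of 12 tested H4 genes all had folds below 0, with a median log2 fold of -1.29, but the median standard error was 1.37 and 1 was called. That row named both Hist1h4m and Hist1h4n and stood at 0.176 FPKM in Srf KO and 1.6 FPKM in WT in the authors' deposited table (-3.19 ± 1.19, adjusted p = 0.0258). It was not called at a threshold of 0.01. Hist1h4i, the most abundant H4 gene, stood at 7.26 FPKM in Srf KO and 11.1 FPKM in WT in the authors' deposited table, a log2 fold of -0.62 ± 0.30 that was not called (adjusted p = 0.0911). After adjustment for transcript length it was called, at -0.98. Hist4h4 stood at 0.603 FPKM in Srf KO and 0.969 FPKM in WT in the authors' deposited table (-0.69 ± 0.31, adjusted p = 0.0713), and it was called after centring on the median of all genes.

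Of 12 Hist H3 rows 3 had a test and 0 of the 3 were called or had an unadjusted p under 0.05. Hist2h3c1, which encodes a core H3 protein, was at 2.43 FPKM in Srf KO and 3.10 FPKM in WT in the authors' deposited table (-0.35 ± 0.28). Hist2h3c2 was at 0.692 FPKM in Srf KO and 0.980 FPKM in WT by the authors' deposited table (-0.50 ± 0.39). All 9 H3 genes of the Hist1 cluster were under the level of the test. Over the 24 untested members of every family the highest levels in the gene table were 0.185 FPKM in Srf KO and 0.265 FPKM in WT, both of Hist3h2ba, and 6 members, among them the testis H1 gene Hist1h1t and the oocyte H1 gene H1foo, are listed at 0 in both genotypes. Of those 6, Hist2h2aa2 is the partner named in the called row with Hist2h2aa1, and Hist1h4n has another locus in the isoform, start site and coding sequence tables, where the authors' deposited table gave it 0.229 FPKM in Srf KO and 1.05 FPKM in WT (-2.20 ± 1.44, not called). Hist1h2aa, the testis H2A gene, had 0.0637 FPKM in the Srf KO column of the authors' deposited table and is listed at 0 in WT.

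The variant genes had another pattern and another scale. Their FPKM summed to 2425 in Srf KO and 1936 in WT, and of 9 tested 3 were called higher and 0 lower, against 17.7% and 17.8% of all tested genes. Their median log2 fold was 0.39. Of them 1, H2afx, was called and at least 2-fold higher, as were 7.13% of all tested genes. The 3 most abundant, H3f3a, H3f3b and H2afz, held 85.1% of all member FPKM in Srf KO and 80.6% in WT. At an unadjusted p of at most 0.05 the counts for variant genes were the same, 3 higher and 0 lower. The contrast between the classes, 0 higher and 18 lower of 48 Hist genes against 3 higher and 0 lower of 9 variant genes, is a description, since no test was made over members.

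The 3 called variant genes all belong to the H2A family. H2afx, whose phosphorylated protein marks DNA breaks, is at chr9:44334715-44336073 and has the stem-loop shown above as well as a long extension past it. It stood at 80.1 FPKM in Srf KO and 39.2 FPKM in WT in the authors' deposited table (1.03 ± 0.19, adjusted p = 9.69e-07). H2afz, which encodes the main H2A.Z protein found around start sites and enhancers, is at chr3:137864599-137866922. It stood at 843 FPKM in Srf KO and 439 FPKM in WT in the authors' deposited table (0.94 ± 0.19, adjusted p = 8.13e-06). H2afv encodes another H2A.Z protein and stood at 41.6 FPKM in Srf KO and 30.3 FPKM in WT in the authors' deposited table (0.46 ± 0.19, adjusted p = 0.0493). The call of H2afv was the weakest among members and was lost after centring (0.38), after adjustment for transcript length (0.23) and in each of the other 3 tables. The FPKM ratio of H2afz to H2afv was 20.3 in Srf KO and 14.5 in WT.

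The H3 replacement genes showed no called change. H3f3a was at 971 FPKM in Srf KO and 1014 FPKM in WT in the authors' deposited table, a log2 fold of -0.06 ± 0.19 with a 95% interval of -0.44 to 0.32. H3f3b, which encodes the same protein from another chromosome, was at 339 FPKM in Srf KO and 289 FPKM in WT in the authors' deposited table, a log2 fold of 0.23 ± 0.19 with a 95% interval of -0.14 to 0.61. The interval of H3f3b includes a change of the size called for H2afv, and that of H3f3a does not. H3f3a exceeded H3f3b by 2.86-fold in Srf KO and 3.51-fold in WT on the FPKM scale.

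Of the remaining H2A variants none was called, and none had an unadjusted p under 0.05. H2afy, which encodes macroH2A and is found on silent chromatin, was at 127 FPKM in Srf KO and 103 FPKM in WT in the authors' deposited table (0.30 ± 0.19, adjusted p = 0.212). Its 4 isoforms were each uncalled. H2afj was at 7.44 FPKM in Srf KO and 8.78 FPKM in WT in the authors' deposited table (-0.24 ± 0.23). H2afy2, which encodes another macroH2A, was at 0.765 FPKM in Srf KO and 0.391 FPKM in WT in the authors' deposited table (0.97 ± 0.95).

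The promoters of 3 of the H2B genes called lower are shown as examples beside that of H2afz, which was called higher. Each runs from 250 bases before to 50 bases after the RefSeq start on GRCm38.p6, and capitals mark ATTTGCAT, the octamer element known from H2B promoters, and the CCAAT box, each searched on both strands and printed as it reads on the strand shown.
Hist1h2bf (chr13:23574158-23574457, minus strand): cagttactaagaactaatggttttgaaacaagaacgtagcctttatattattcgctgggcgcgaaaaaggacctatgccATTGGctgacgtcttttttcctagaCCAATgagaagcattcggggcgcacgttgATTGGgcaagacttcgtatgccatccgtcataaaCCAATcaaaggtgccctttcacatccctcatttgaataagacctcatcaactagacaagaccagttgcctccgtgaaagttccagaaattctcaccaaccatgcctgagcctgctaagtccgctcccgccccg
Hist1h2bk (chr13:22035571-22035870, plus strand): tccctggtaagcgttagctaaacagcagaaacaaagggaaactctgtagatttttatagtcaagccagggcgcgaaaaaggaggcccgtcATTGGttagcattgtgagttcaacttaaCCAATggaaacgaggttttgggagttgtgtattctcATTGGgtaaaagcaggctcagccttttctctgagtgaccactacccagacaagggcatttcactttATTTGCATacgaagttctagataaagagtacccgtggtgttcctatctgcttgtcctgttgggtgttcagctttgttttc
Hist1h2bg (chr13:23571150-23571449, plus strand): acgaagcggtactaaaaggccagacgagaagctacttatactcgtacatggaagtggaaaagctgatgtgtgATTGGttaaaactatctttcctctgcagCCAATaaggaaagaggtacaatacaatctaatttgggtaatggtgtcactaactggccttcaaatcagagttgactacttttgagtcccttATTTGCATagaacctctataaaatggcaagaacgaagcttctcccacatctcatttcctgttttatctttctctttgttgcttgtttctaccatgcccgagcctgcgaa
H2afz (chr3:137864237-137864536, plus strand): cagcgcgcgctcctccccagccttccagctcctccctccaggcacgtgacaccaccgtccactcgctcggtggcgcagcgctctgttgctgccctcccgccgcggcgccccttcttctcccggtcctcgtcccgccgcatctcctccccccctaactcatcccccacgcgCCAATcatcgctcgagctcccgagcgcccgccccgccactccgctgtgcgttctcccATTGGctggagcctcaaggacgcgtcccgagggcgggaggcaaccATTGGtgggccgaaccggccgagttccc

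A promoter window was matched to 73 of the 81 members. ATTTGCAT was found in 7 of 15 H2B windows and 7 of 18 H2A windows of Hist genes, in 0 windows of Hist H1, H3 or H4 genes, and in 1 variant window, that of H3f3b. Over all 32851 RefSeq windows of that length, 1.74% held it. Of 13 matched windows of H2B genes called lower 6 held it, and that of the uncalled Hist2h2bb held it too. In the windows shown, the octamer began at position -30 from the start in Hist1h2bk and at -59 in Hist1h2bg. The exact letters were not in the window of Hist1h2bf, nor in those of Hist1h2bl and Hist1h2bn, which are not shown. CCAAT was in all matched windows of Hist H1 (6), H2A (18), H2B (15) and H3 (10) genes and in 3 of 12 H4 windows, against 37.4% of all windows. The CArG box, the element that SRF binds, was in 5 of the 73 windows, those of Hist1h2bb, Hist1h2bp, Hist1h2an, Hist2h2ac and H2afb1, against 1.63% of all windows. The member row of H2afb1 lies on chromosome 2, and its window is that of the RefSeq gene H2al2a. The stem-loop search used a gene of the name H2afb1 on chromosome X. Close H2A and H2B neighbours can share part of their windows, and a match is not evidence of binding.

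The authors' isoform, start site and coding sequence tables repeat the values of most members, since most have 1 transcript. Of 61 tested isoforms of members, 2 were called higher and 17 lower, against 13.1% and 14.0% of all isoforms. Of 58 tested start site groups 2 were called higher and 18 lower, against 15.1% and 16.1% of all groups. Of 62 tested coding sequences 2 were called higher and 18 lower, against 14.4% and 15.8% of all coding sequences. Some loci are listed more than once with equal values, and counted once they leave 15 lower of 58 isoforms, 16 lower of 55 start site groups and 16 lower of 59 coding sequences, with 2 higher in each. Hist1h1c had the same FPKM in these tables but the status NOTEST in all 3. The 2 isoforms listed for Hist1h2be were both untested, while its coding sequence was called lower.

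Genes that make and handle histone mRNA were called in both directions. Of 16 tested genes in this list 2 were called higher and 4 lower, against 17.7% and 17.8% of all tested genes, with a median log2 fold of 0.09. Sympk, a scaffold of the 3′ end cleavage complex, was at 7.61 FPKM in Srf KO and 17.1 FPKM in WT in the authors' deposited table (-1.16 ± 0.20). Upf1, a helicase needed for histone mRNA decay, was at 8.40 FPKM in Srf KO and 16.5 FPKM in WT in the authors' deposited table (-0.98 ± 0.21). Hinfp, a transcription factor of H4 genes, was at 3.18 FPKM in Srf KO and 5.92 FPKM in WT in the authors' deposited table (-0.90 ± 0.25). Lsm10, a subunit of the U7 particle that processes histone 3′ ends, was at 26.8 FPKM in Srf KO and 42.8 FPKM in WT in the authors' deposited table (-0.68 ± 0.26). These 4 were the genes of the list called lower. The 2 called higher had smaller folds: in the authors' deposited table Ncbp2, a cap-binding subunit gene, had 12.8 FPKM in Srf KO and 8.59 FPKM in WT (0.58 ± 0.21), and Eri1, a histone mRNA exonuclease gene, had 9.25 FPKM in Srf KO and 6.58 FPKM in WT (0.49 ± 0.20). Slbp, the stem-loop binding protein gene, was at 62.9 FPKM in Srf KO and 46.4 FPKM in WT in the authors' deposited table, just outside the threshold (0.44 ± 0.19, adjusted p = 0.052).

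Histone chaperone genes and DNA replication genes were called in the direction opposite to the Hist genes. Of 25 tested chaperone genes 11 were called higher (44.0%) and 0 lower by the authors' test (13 and 1 at an unadjusted p of at most 0.05), against 17.7% higher and 17.8% lower over all tested genes, with a median log2 fold of 0.48. Npm1, the nucleophosmin gene, was at 173 FPKM in Srf KO and 76.7 FPKM in WT in the authors' deposited table (1.18 ± 0.20). Asf1a, which encodes a chaperone of H3 and H4, was at 9.64 FPKM in Srf KO and 4.95 FPKM in WT in the authors' deposited table (0.96 ± 0.26). Ptma, which encodes an H1 chaperone, was at 747 FPKM in Srf KO and 410.0 FPKM in WT in the authors' deposited table (0.87 ± 0.19). Set followed in the list at 66.1 FPKM in Srf KO and 37.4 FPKM in WT in the authors' deposited table (0.82 ± 0.23).

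Of 44 tested DNA replication genes 30 were called higher (68.2%) and 0 lower by the authors' test (35 and 0 at an unadjusted p of at most 0.05), against 17.7% higher and 17.8% lower over all tested genes, with a median log2 fold of 0.61 against 0.08 over all tested genes. Gins1, a subunit of the replicative helicase, was at 9.99 FPKM in Srf KO and 3.97 FPKM in WT in the authors' deposited table (1.33 ± 0.28). Of the origin recognition genes, Orc6 was at 16.4 FPKM in Srf KO and 6.93 FPKM in WT by the authors' deposited table (1.24 ± 0.23). Orc1 was at 1.32 FPKM in Srf KO and 0.597 FPKM in WT by the authors' deposited table (1.14 ± 0.31).

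**Figure D4:**
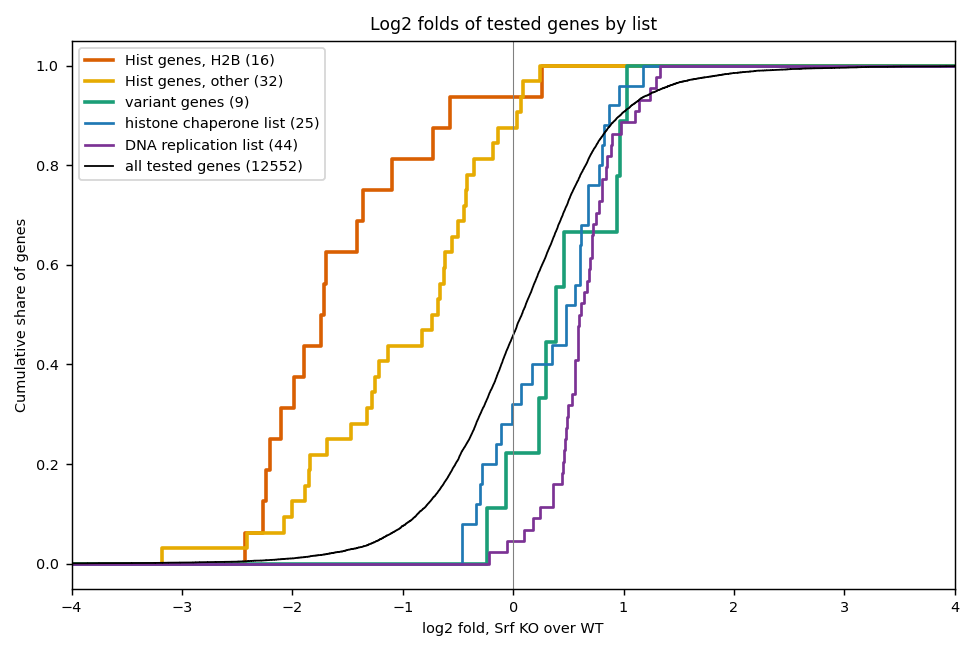
Cumulative share of tested genes by log2 fold of Srf KO over WT for Hist H2B genes (16), other Hist genes (32), variant genes (9), histone chaperones (25), DNA replication genes (44) and all tested genes with a fold (12552). The median is -1.73 for H2B genes, 0.39 for variant genes, 0.48 for chaperones and 0.61 for replication genes, against 0.08 over all tested genes.

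Markers of other cells moved with the genotype, and their part in the histone results was not tested. Markers summed to 967 FPKM in Srf KO and 531 FPKM in WT for early granulocytes (3 of 6 tested called higher), to 272 FPKM in Srf KO and 172 FPKM in WT for erythroid cells (10 of 13), and to 108 FPKM in Srf KO and 47.1 FPKM in WT for T and NK cells (8 of 9). They summed to 162 FPKM in Srf KO and 104 FPKM in WT for B cells (4 of 8), to 49.3 FPKM in Srf KO and 6.21 FPKM in WT for platelets (6 of 8), to 136 FPKM in Srf KO and 116 FPKM in WT for macrophages (6 of 8 higher and 2 lower), and to 25.1 FPKM in Srf KO and 12.3 FPKM in WT for stem and progenitor cells (5 of 5). Except for the macrophage list none of these 7 lists had a marker called lower, and of their markers Gp6, a platelet gene, is listed at 0 in WT alone. Over all tested genes 17.7% were called higher and 17.8% lower. Fewer cells of a type and less RNA per cell cannot be told apart in these bulk samples.

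Transcript length also moved with the folds. Over all genes the running median log2 fold was 0.36 for the shortest transcripts and -0.35 for the longest, and tested Hist genes are short, with a median length of 531.5 bases against 2710.5 bases for all tested genes. Adjusted for this trend, the median was -1.55 for Hist genes and 0.21 for variant genes.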

How the data were processed

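RNA-seq tables of sorted neutrophils (2 Srf KO and 2 WT samples) were used. Per the submitters' processing notes, which give no order or role, the authors used CASAVA 1.8.1, TopHat2 2.0.0, Cufflinks 2.0.0 and mm10. The deposited gene, isoform, start site and coding sequence tables give, per the file headers, a pooled FPKM per genotype, a log2 fold of WT over KO (read as a score, since a placeholder stands where a genotype is at 0), a test statistic score, a p-value and a q-value. Depth and per-sample values are unknown, and whether p-values reflect the spread between animals is not known. How the authors set up their test is not stated in the sources used here.

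From these values the sign of each fold was turned to Srf KO over WT and the standard error was computed as the absolute fold over the absolute statistic. The 95% intervals are the fold ± 1.96 standard errors. The q-values match a Benjamini-Hochberg adjustment over all tested rows, and q of at most 0.05 was used throughout. All tested members could be named. From each supply list up to 4 called genes with the largest folds at 1 FPKM or more were named; Slbp, Ncbp2 and Eri1 lie outside this rule and were chosen after their values were seen. Of the genes this rule selects, 1 is not reported here. The members and lists were chosen with earlier results of these data known.

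Length adjustment removed the running median of the fold over 50 length bins, smoothed over 5. Simulated data with a shift common to all genes were used to test centring, and the length adjustment itself was not tested on simulated data. As alternatives, thresholds of 0.01 and 0.1, minimum levels of 1 and 5 FPKM, a 2-fold minimum, centring, pseudocounts of 1 and 0.1, rows naming 1 gene, members of any status and other classes were tried. Leaving out H2afx or the H2B genes was chosen after seeing the data. Stem-loops were searched in GENCODE M21 transcripts, and promoters were RefSeq GRCm38.p6 windows matched through isoform accessions for 80 of 81 symbols. Tools were Python 3.11.15 with scipy 1.17.1, pandas 2.3.3, numpy 2.4.6 and, for plots, matplotlib 3.10.9.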

Additional observations from a re-analysis of the deposited data

How the results depend on the processing

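No alternative turned the sign of a called member's fold or of the median of the members, a class or a list. Of uncalled members, 4 with folds near 0 changed sign under some settings (Hist1h1b, Hist1h2ae, Hist1h2af and Hist3h2a), and the median of all tested genes, 0.08 as reported, was -0.10 at 5 FPKM or more and -0.0031 after length adjustment. At q of at most 0.01, of the members H2afv, Hist1h2ba, Hist1h2bb, Hist1h2bm and the row of Hist1h4m and Hist1h4n were no longer called, while 0 histone mRNA processing genes and 17 replication genes were called higher. At 0.1, 4 more members were called lower (Hist1h2ac, Hist1h4i, Hist2h2ac and Hist4h4), 5 processing genes were higher and 4 lower (2 and 4 as reported), and 1 chaperone was lower. A member can pass a filter at 1 or 5 FPKM through WT alone, so the next values are descriptions. At 1 FPKM or more in either genotype the median log2 fold was -1.28 for all members, -1.71 for Hist genes, 0.34 for variant genes and 0.16 for processing genes. At 5 FPKM, where few H2B genes are left, 5 Hist genes were called lower, 3 of them H2B, and the medians were -0.15 for all members, -1.25 for Hist, 0.34 for variant, 0.017 for processing, 0.58 for chaperone and 0.59 for replication genes. With at least 2-fold, 1 member, a variant, was called higher, and 0 processing, 1 chaperone and 5 replication genes were, with 1 processing gene lower. Centring gave medians of -0.82 for all members, -1.31 for Hist, 0.31 for variant, 0.012 for processing, 0.40 for chaperone and 0.53 for replication genes, with 0 processing genes higher and 1 chaperone lower. Length adjustment gave -1.07 for all members, -1.55 for Hist, 0.21 for variant, 0.17 for processing, 0.44 for chaperone and 0.54 for replication genes. Rows naming 1 gene gave -0.73 for all members and -1.25 for Hist genes.

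On the log2(FPKM + 1) scale the median was -0.43 for Hist and 0.34 for variant genes, and with a pseudocount of 0.1 it was -1.06 for Hist and 0.38 for variant genes. Over members of any status above 0 in both genotypes it was -0.92 for Hist and 0.30 for variant genes. Leaving out Hist genes known with poly(A) tails gave -1.25. Leaving out H2afx gave 0.34 for variant genes. Leaving out the H2B genes gave 4 Hist genes called lower and a median of -0.71.

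Over all genes, centring moved the calls to 1819 higher and 2575 lower, against 2234 and 2252 as reported, and the median of all folds was 0.08. No paired analysis was possible because the tables hold 1 pooled value per genotype, and leaving out a replicate was not run for the same reason. Low levels limit the H2A and H4 results, where median standard errors were largest, and left 9 of 12 H3 genes untested.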

Other observations

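Equal FPKM values occurred in 1 pair of H4 genes and 1 pair of H2A genes. Hist1h4c and Hist1h4j were both listed at 0.193 FPKM in Srf KO, and Hist1h2ad and Hist1h2ai were both listed at 0.446 FPKM in WT. Their values in the other genotype differed: in WT Hist1h4c was at 0.620 FPKM and Hist1h4j at 1.02 FPKM, and in Srf KO Hist1h2ad was at 0.305 FPKM and Hist1h2ai at 0.288 FPKM. The coding sequences of Hist1h4c and Hist1h4j were 93.6% identical, and those of Hist1h2ad and Hist1h2ai 98.7%. Over 13 H4 genes the coding sequences were 85.3% to 100% identical, and over 15 H2A genes 77.6% to 100%, and how the authors' counting split shared reads was not tested.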
